A study of Mus musculus with 6 samples.

Results

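The 9 genes described here encode the proteins that act first when the T cell receptor (TCR) is engaged: the kinases Lck, Zap70 and Csk, the adaptors Lat and Lcp2, the phospholipase Plcg1, the phosphatases Ptpn22 and Ptpn6, and the surface receptor Cd5. They were chosen by name for their place in the pathway, with earlier results of these data known, from 49671 genes in the deposited count tables. All 9 were found and passed the filter on low counts. They were measured by RNA-seq in 6 libraries of mouse OT-I CD8 T cells from splenocytes, 48 h after stimulation with SIINFEKL presented on antigen-presenting cells. OT-I cells carry a transgenic TCR that recognises SIINFEKL, a peptide of ovalbumin, and the OT-I genotype and the peptide were shared by all 3 groups. The groups differed in the reagent added, with 2 libraries for BiTS, 2 for BiTS(mut) and 2 for the isotype control. BiTS is a bispecific T cell silencer that brings the inhibitory receptor LAG-3 next to the TCR. The labels do not say what was changed in BiTS(mut), and they do not say whether the 2 libraries of a group came from separate mice or cultures, so p-values speak only of the spread among these 6 libraries, which may be technical. The labels call the cells naive primary CD8 T cells, but RNA was taken after stimulation, and markers of dendritic cells were abundant in every library.

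When a peptide bound to MHC engages the TCR, Lck, a Src family kinase held by the CD8 coreceptor, phosphorylates the CD3 and zeta chains. Zap70 docks on the phosphorylated chains and phosphorylates the adaptors Lat and Lcp2 (SLP-76), which gather Plcg1 at the membrane. Plcg1 then cleaves a membrane lipid into diacylglycerol and inositol trisphosphate, which start Ras signalling and calcium release. Csk holds Lck inactive by phosphorylating its inhibitory tyrosine, Ptpn22 and Ptpn6 (SHP-1) remove activating phosphates from the proximal kinases and their substrates, and Cd5 is a surface receptor that dampens TCR signals. These proteins are controlled largely by phosphorylation, and the counts given here measure only their RNA.

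In the coordinates of the deposited tables (mm10), the kinase genes lie as follows: Lck (ENSMUSG00000000409) at chr4:129548344-129573641 (minus strand), Zap70 (ENSMUSG00000026117) at chr1:36761798-36782818 (plus strand) and Csk (ENSMUSG00000032312) at chr9:57626646-57653631 (minus strand). The adaptor genes are Lat (ENSMUSG00000030742) at chr7:126363824-126369570 (minus strand) and Lcp2 (ENSMUSG00000002699) at chr11:34046920-34092295 (plus strand), and the phospholipase gene is Plcg1 (ENSMUSG00000016933) at chr2:160731300-160775760 (plus strand). The phosphatase genes are Ptpn22 (ENSMUSG00000027843) at chr3:103859795-103912247 (plus strand) and Ptpn6 (ENSMUSG00000004266) at chr6:124720707-124738714 (minus strand), and the receptor gene is Cd5 (ENSMUSG00000024669) at chr19:10718143-10738974 (minus strand). All 9 are protein-coding, and the tables list exons that cover from 2069 bases for Cd5 to 7857 for Plcg1. Exons of Plcg1, Ptpn6 and Lcp2 share bases with genes on the other strand, of which only Zhx3, beside Plcg1, had more than 18 counts in a library. Short microRNA genes share bases with exons of Lck (Mir8119, 25 of its 129 bases, with 4 to 11 counts) and Lat (Mir7058, 75 of 75, with 0).

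The promoters of the 4 genes that were higher under BiTS than under isotype (Lck, Zap70, Plcg1 and Ptpn22) are shown because these genes moved together. Sequences are from RefSeq (GRCm38.p6), which held 14 start sites for the 9 genes. Each runs 5′ to 3′ on the strand of the gene over up to 250 bases before an annotated start, without bases that lie in annotated exons, and capitals mark the core of ETS factor sites (GGAAG, or CTTCC on the other strand). Lck is shown at its distal start, used in mature T cells, and at its proximal start, used mainly in thymocytes.
Lck, distal start, chr4:129573642-129573891, minus strand: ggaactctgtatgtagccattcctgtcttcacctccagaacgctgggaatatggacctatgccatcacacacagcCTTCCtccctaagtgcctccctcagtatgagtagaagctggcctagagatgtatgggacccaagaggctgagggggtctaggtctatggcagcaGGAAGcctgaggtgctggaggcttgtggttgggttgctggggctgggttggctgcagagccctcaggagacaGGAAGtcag
Lck, proximal start, chr4:129558392-129558622, minus strand: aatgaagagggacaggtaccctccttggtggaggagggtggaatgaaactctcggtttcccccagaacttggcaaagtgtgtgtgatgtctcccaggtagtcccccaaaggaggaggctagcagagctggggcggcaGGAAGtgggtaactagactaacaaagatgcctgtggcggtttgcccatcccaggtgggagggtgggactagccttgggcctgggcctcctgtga
Zap70, first start, chr1:36761548-36761797, plus strand: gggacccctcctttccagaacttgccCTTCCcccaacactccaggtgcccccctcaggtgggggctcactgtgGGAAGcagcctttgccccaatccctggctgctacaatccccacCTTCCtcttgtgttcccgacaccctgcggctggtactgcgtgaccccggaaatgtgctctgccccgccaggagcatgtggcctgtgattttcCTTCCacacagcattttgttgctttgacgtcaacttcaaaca
Plcg1, chr2:160731060-160731299, plus strand: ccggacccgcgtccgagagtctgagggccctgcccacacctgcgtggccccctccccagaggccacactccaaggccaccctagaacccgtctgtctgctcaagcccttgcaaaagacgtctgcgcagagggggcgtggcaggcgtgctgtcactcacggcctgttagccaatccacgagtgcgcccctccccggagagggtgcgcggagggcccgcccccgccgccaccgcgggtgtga
Ptpn22, first start, chr3:103859545-103859794, plus strand: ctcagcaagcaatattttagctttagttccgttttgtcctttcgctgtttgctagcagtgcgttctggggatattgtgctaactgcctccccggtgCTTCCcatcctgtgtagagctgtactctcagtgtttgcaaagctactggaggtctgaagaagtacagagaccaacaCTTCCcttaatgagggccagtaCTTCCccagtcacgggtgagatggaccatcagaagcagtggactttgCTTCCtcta
The ETS core occurred 3 times before the distal Lck start, 1 time before the proximal one, 4 times before Zap70 and 4 times before Ptpn22. The Plcg1 window, with a GC content of 70.8%, did not hold these letters. The core was found in 12 of the 14 windows of the 9 genes, against 64.1% of the 32851 windows of all genes, so it is common among promoters. A RUNX motif (TGTGGT, or ACCACA) was in 3 of the 14 windows against 14.0% of all, an AP-1 motif (TGANTCA) in 0 of 14 against 6.75%, and an E-box (CAGCTG) in 1 of 14 against 13.0%. These are matches of letters and not measured binding, and the counts are per gene, so they do not show which start was used.

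Gene counts summed to between 10813123 and 15239077 per library. The library titles number the samples from 1 to 6, and the libraries with numbers 1 to 3 (1 of each group) formed a first set and those with numbers 4 to 6 a second set. Libraries of the same set resembled each other: deviations from the group means correlated at 0.70 to 0.78 between groups over 13996 genes, and the sets lay apart on the first principal component (68.7% of the variance). For this reason each comparison is given from edgeR's quasi-likelihood test without and with the set as a replicate block, and p-values were adjusted by Benjamini-Hochberg for all 13996 tested genes. Genes were called at an adjusted p under 0.05. Normalised CPM are library-scaled counts (CPM) corrected with TMM factors.

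All 9 genes were well expressed. Counts ran from 1299 for Cd5 in BiTS replicate 2 to 10778 for Lck in BiTS replicate 1, so the counting error at the lowest count of each gene was 1.28% to 2.77%. Per kilobase of exon, Lck was the most abundant, with 229 ± 31.1 normalised CPM per kb (SD, n = 6 libraries over all groups). Ptpn6 followed with 147 ± 9.22 and Lat with 97.8 ± 19.6 normalised CPM per kb. Every library had more Lck than Ptpn6, and more Ptpn6 than Lat, on this scale. Cd5 (77.9 ± 11.4), Csk (74.3 ± 5.72) and Zap70 (73.6 ± 6.67 normalised CPM per kb) lay close together, and their ranges over libraries overlapped with each other. The lowest levels were those of Ptpn22 (42.5 ± 10.5), Plcg1 (40.0 ± 7.10) and Lcp2 (38.2 ± 5.12 normalised CPM per kb), whose ranges also overlapped and which all lay below Zap70. The lowest of the 9 still stood near the top of the tested genes (percentile 89.98), and Lck stood at percentile 98.7.

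In the comparison of BiTS with isotype, which asks how engaging LAG-3 beside the TCR changes the RNA of stimulated OT-I cells, Lck, Zap70, Plcg1 and Ptpn22 were higher under BiTS, by 1.22-fold to 1.39-fold. These calls were made with the replicate block, where 4 of the 9 genes were called higher and 0 lower, against 1.81% of all tested genes called higher and 1.59% lower (3.4% in all). Without the block 0 of the 9 and 0 of all 13996 genes were called (176 genes had an unadjusted p under 0.05, among them Lck and Plcg1), and DESeq2 and limma-voom without the block also called 0. The median log2 fold change of the 9 genes with the block was 0.19, beside a median of -0.005 over all tested genes.

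Of the kinases, Lck had 798 normalised CPM in BiTS replicate 1 and 749.9 in BiTS replicate 2, 692 and 630.1 in the BiTS(mut) libraries, and 601 and 561 in the isotype libraries of the first and the second set. Both BiTS libraries were above both isotype libraries, and within each set the order was BiTS, BiTS(mut), isotype. Lck was 1.33-fold higher under BiTS than under isotype (log2 fold change 0.41 ± 0.08 (SE), adjusted p = 0.000649 with edgeR and the block), with nearly the same difference in the first set (0.41) and the second (0.42). Zap70 had 243 and 245 normalised CPM in the BiTS libraries, 218 and 214 in the BiTS(mut) libraries, and 204 and 197 in the isotype libraries. Its groups did not overlap, and the fold change was the smallest of the 4 called (0.28 ± 0.08, adjusted p = 0.0417 with edgeR and the block). The call for Zap70 was the least stable: it was kept in 1 of 6 fits that each left out 1 library, that without isotype replicate 1. Csk, which opposes Lck, had 279 and 289 normalised CPM in the BiTS libraries, 258 and 285 in the BiTS(mut) libraries, and 249 and 308 in the isotype libraries. The groups overlapped, the difference between BiTS and isotype had opposite signs in the 2 sets, and its 95% interval was -0.13 to 0.20 on the log2 scale with the block.

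Plcg1 had 396 and 346 normalised CPM in the BiTS libraries, 336 and 272 in the BiTS(mut) libraries, and 293 and 242 in the isotype libraries. The lower of the BiTS libraries, from the second set, was still above both isotype libraries. Plcg1 had the largest fold change of the 9 genes in this comparison, 1.39-fold (0.48 ± 0.08 log2, adjusted p = 0.000147 with edgeR and the block), and the call was kept in 6 of 6 fits that each left out 1 library. Reads in part of the gene are uncertain, since 379 exonic bases of Plcg1 are shared with Zhx3 on the other strand, but Zhx3 had only 90 to 171 counts per library against 2636 or more for Plcg1. Among the adaptors, which link Zap70 to Plcg1, Lat had 255 and 327 normalised CPM in the BiTS libraries, 212 and 311 in the BiTS(mut) libraries, and 205 and 313 in the isotype libraries. Lat differed more between the sets than between the groups, and its difference of 0.19 ± 0.08 was not called (adjusted p = 0.269 with edgeR and the block). Lcp2 had 167 and 136 normalised CPM in the BiTS libraries, 200.2 and 159 in the BiTS(mut) libraries, and 191 and 169 in the isotype libraries. It lay lower under BiTS in both sets, but its difference of -0.25 ± 0.08 did not pass the threshold (adjusted p = 0.0919 with edgeR and the block).

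Of the inhibitory genes, Ptpn22 had 393 and 292 normalised CPM in the BiTS libraries, 324 and 221 in the BiTS(mut) libraries, and 302 and 198 in the isotype libraries. The groups overlapped across the sets, since every first-set library was above every second-set library, but within each set BiTS was the highest. With the block Ptpn22 was 1.38-fold higher under BiTS than under isotype (0.47 ± 0.08 log2, adjusted p = 0.000203 with edgeR), with differences of 0.38 in the first set and 0.56 in the second. Ptpn6 had 398 and 389 normalised CPM in the BiTS libraries, 458 and 399.8 in the BiTS(mut) libraries, and 427 and 400.2 in the isotype libraries. The BiTS libraries were just below the others, and the difference of -0.07 ± 0.08 was not called (adjusted p = 0.756 with edgeR and the block). Cd5 had 156 and 123 normalised CPM in the BiTS libraries, 195 and 156 in the BiTS(mut) libraries, and 172 and 164 in the isotype libraries. It was lowest under BiTS in both sets, with a difference of -0.27 ± 0.09 that did not pass the threshold (adjusted p = 0.0709 with edgeR and the block).

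**Figure D1:**
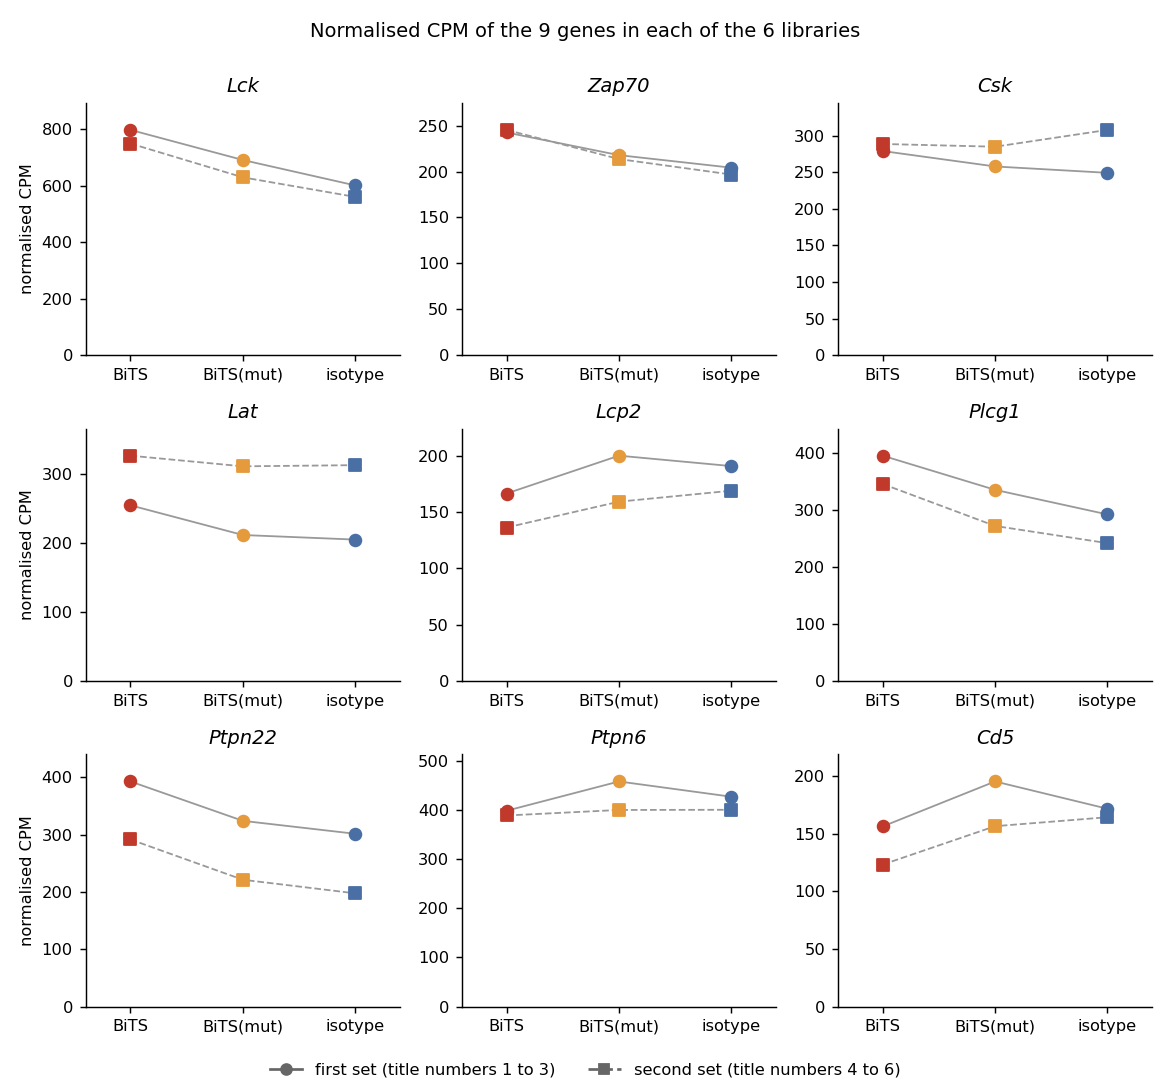
Normalised CPM (y axis, from 0) of each of the 9 genes in the 6 libraries, by group (x axis), with circles and solid lines for the first set and squares and dashed lines for the second. Lck, Zap70, Plcg1 and Ptpn22 descend through BiTS, BiTS(mut) and isotype in both sets, while Lat and Ptpn22 differ most between the sets.

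Both BiTS libraries were above both isotype libraries for 3 of the 9 genes (Lck, Zap70 and Plcg1), against 11.3% of all tested genes, and below them for 3 (Lcp2, Ptpn6 and Cd5), against 9.5%. The order BiTS above BiTS(mut) above isotype held in both sets for 4 of the 9 genes (Lck, Zap70, Plcg1 and Ptpn22), against 6.52% of all tested genes, and the reverse order for 0 of the 9, against 5.82%. The calls rested on few libraries: without BiTS replicate 2, the least deeply sequenced, only Plcg1 was still called (0.43 log2, adjusted p = 0.043 with edgeR and the block). Scaled to the ERCC spike-in counts, which put the median of all genes at 0.05 on the log2 scale and gave standard errors of 0.42 to 0.43 for the 9 genes, 0 of the 9 were called, with Lck at 0.47 and Plcg1 at 0.54.

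**Figure D2:**
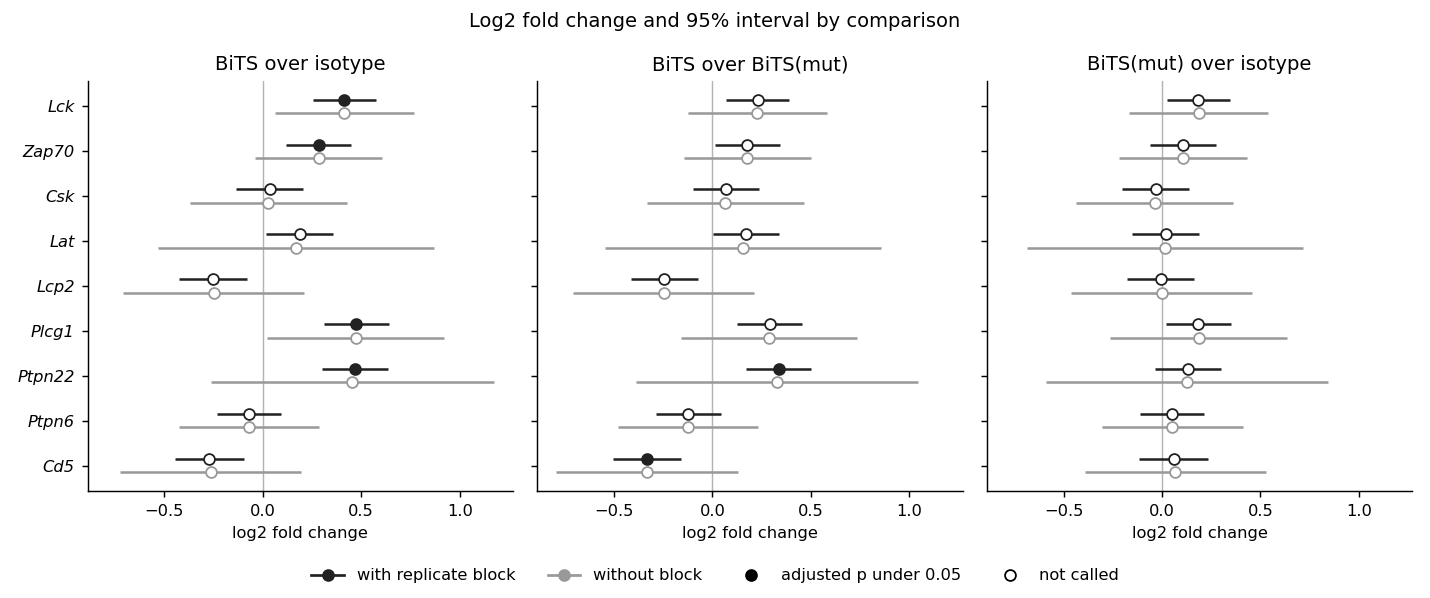
Log2 fold change (x axis) of the 9 genes in the 3 group comparisons with 95% intervals, black with the replicate block and grey without, and filled points for an adjusted p under 0.05. With the block 4 genes are called in BiTS over isotype, 2 in BiTS over BiTS(mut) and 0 in BiTS(mut) over isotype, and without it 0 in each.

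In bulk RNA, fewer cells of a type and less RNA per cell cannot be told apart, and cell type markers moved with the groups. The 10 T cell markers summed to 2084 and 2318 CPM in the BiTS libraries, 1850 and 2170 in the BiTS(mut) libraries, and 1836 and 2141 in the isotype libraries. All 10 had a positive log2 fold change between BiTS and isotype with the block, with a median of 0.17. Of the 10, 2 were called higher (Cd8a and Cd8b1), against 1.81% of all tested genes. The 18 dendritic cell markers summed to 2470 and 1469 CPM in the BiTS libraries, 3018 and 1645 in the BiTS(mut) libraries, and 3077 and 1556 in the isotype libraries. Of the 16 that were tested, 7 were called lower under BiTS than under isotype, and 0 higher, against 1.59% and 1.81% of all tested genes. Siglech was at 0 in every library and Cd209a in 5 of 6. Macrophage and monocyte markers summed to 29.9 to 51.4 CPM, B cell markers to 59.1 to 98.3, NK cell markers to 151 to 190.4, and CD4 T cell markers to 3.54 to 4.05, while erythroid and neutrophil markers stayed under 1 CPM in each library. Several of the 9 genes, Csk, Lcp2, Ptpn6 and Plcg1 among them, are also expressed by myeloid cells. The part of the cell mixture in the differences of the 9 genes was not tested.

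Set against Cd3e, a chain of the TCR complex, Lck per kb was 9.05 and 7.19 times the level of Cd3e per kb in the BiTS libraries, 8.41 and 7.17 times in the BiTS(mut) libraries, and 7.26 and 6.25 times in the isotype libraries. This ratio was highest under BiTS in both sets, though by little over BiTS(mut) in the second. Plcg1 over Cd3e gave 1.67 and 1.24 in the BiTS libraries, 1.52 and 1.16 in the BiTS(mut) libraries, and 1.32 and 1.01 in the isotype libraries. Zap70 over Cd3e gave 2.69 and 2.30 in the BiTS libraries, 2.59 and 2.38 in the BiTS(mut) libraries, and 2.41 and 2.15 in the isotype libraries, so in the second set it was not highest under BiTS. These ratios depend on the reference gene. Between BiTS and isotype, Cd3e differed by 0.09 and 0.22 on the log2 scale in the first and second set. Cd8b1 differed by 0.43 and 0.35, Cd8a by 0.43 and 0.24, and Trbc2 by 0.16 and -0.13. Lck differed by 0.41 and 0.42, Zap70 by 0.25 and 0.32 and Plcg1 by 0.44 and 0.52. In the first set neither Lck nor Zap70 rose more than Cd8b1 or Cd8a, while in the second Lck rose more than both. The balance of Lck and its negative regulator Csk was 3.65 and 3.32 in the BiTS libraries, 3.42 and 2.82 in the BiTS(mut) libraries, and 3.08 and 2.33 in the isotype libraries. The balance of Lck and Ptpn22, which both rose, was 4.70 and 5.95 in the BiTS libraries, 4.94 and 6.58 in the BiTS(mut) libraries, and 4.61 and 6.56 in the isotype libraries. It differed between the sets and showed no common direction between BiTS and isotype.

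Among 97 other genes of TCR signalling in 6 lists, 94 were tested. With the block 9 were called higher and 0 lower under BiTS than under isotype, against 1.81% and 1.59% of all tested genes. The median log2 fold change of the 94 was 0.08. In the list of the TCR complex and coreceptors, Cd8b1 and Cd8a, the chains of the coreceptor that carries Lck, were called higher (0.39 ± 0.08, adjusted p = 0.00297, and 0.34 ± 0.08, adjusted p = 0.0136, with edgeR). All 9 genes of this list had positive values, with a median of 0.18, against 6870 of all 13996 tested genes with positive values. These 9 are also T cell markers counted above, so both lists give the same observation. Among other Src, Syk and Tec family kinases and PAG, Matk, a relative of Csk that also phosphorylates the inhibitory tyrosine of Src kinases, was the only one of 12 called. It had 30.8 and 46.4 normalised CPM in the BiTS libraries, 27.2 and 30.9 in the BiTS(mut) libraries, and 20.9 and 25.0 in the isotype libraries (0.73 ± 0.12, adjusted p = 0.000109 with edgeR). Among 26 adaptors and scaffolds, Fyb, an adaptor that binds Lcp2, and Grap, a relative of Grb2, were called higher (0.43 ± 0.09 and 0.32 ± 0.09). None of 16 phosphatases and ubiquitin ligases and none of 8 surface receptors that recruit proximal kinases or phosphatases was called in either direction with the block.

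In the list named PLC-gamma effectors, 4 of 23 genes were called, all 4 higher under BiTS, against 1.81% of all tested genes. The name does not place every gene of the list, such as Sos1, downstream of Plcg1. The other 5 of the 9 pathway calls lay in the lists above. Rasgrp2, an exchange factor activated by calcium and diacylglycerol, had 46.6 and 77.4 normalised CPM in the BiTS libraries, 30.2 and 52.1 in the BiTS(mut) libraries, and 33.1 and 43.7 in the isotype libraries. Within each set BiTS was the highest (0.66 ± 0.11 over isotype, adjusted p = 4.71e-05 with edgeR and the block), and this call was kept in 6 of 6 fits that left out 1 library. The Ras exchange factor Sos1 (0.52 ± 0.10) and Itpr2, an inositol trisphosphate receptor (0.41 ± 0.10), were also called. Rasgrp1, the Ras exchange factor that diacylglycerol recruits in T cells, was the remaining call (0.33 ± 0.08, adjusted p = 0.0153 with edgeR and the block). Of the 6 fits that each left out 1 library, 5 kept the calls of Cd8b1, Matk, Fyb and Sos1, 4 that of Itpr2, 3 that of Cd8a and 1 that of Grap. Counts of these calls depended on the libraries: 4 genes of the 94 were called higher without BiTS replicate 2, and 18 without isotype replicate 1.

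**Figure D3:**
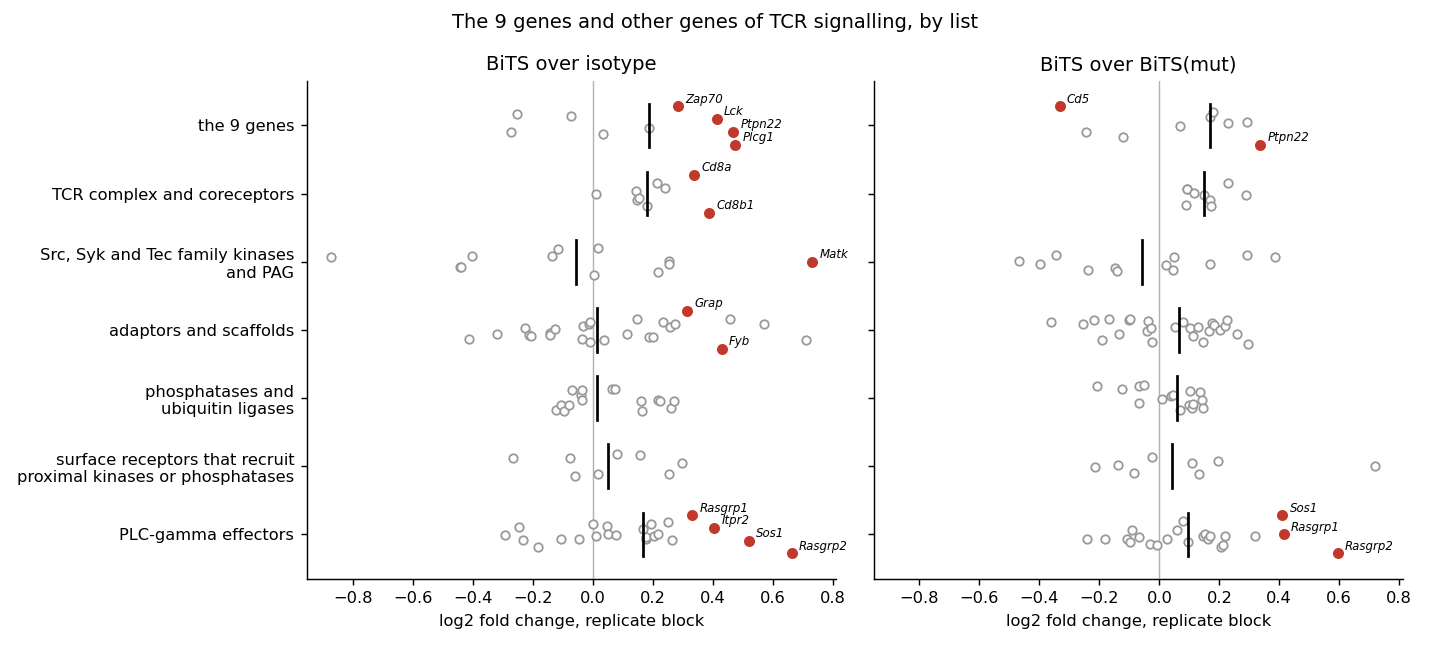
Log2 fold change with the replicate block (x axis) of the 9 genes and of 94 other TCR signalling genes in 6 lists (rows), for BiTS over isotype and BiTS over BiTS(mut). Red points are genes with an adjusted p under 0.05, open points are the rest and black bars are medians, and the other pathway calls (9 and 3) all lie to the right of 0.

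Between BiTS and BiTS(mut), Ptpn22 was higher and Cd5 lower under BiTS. With the block these were 1 of the 9 genes called higher and 1 lower, against 0.272% and 0.7% of all tested genes (0.972% in all), while without it 0 of the 9 and 0 of all genes were called (76 had an unadjusted p under 0.05). Ptpn22 was 1.26-fold higher (0.34 ± 0.08 log2, adjusted p = 0.0246 with edgeR and the block), with differences of 0.28 in the first set and 0.40 in the second. Cd5 was lower by 0.33 ± 0.09 on the log2 scale (adjusted p = 0.0410 with edgeR and the block), with a difference of -0.32 in the first set and -0.34 in the second, the most even of its differences. Plcg1 (0.29 ± 0.08, adjusted p = 0.0689), Lck (0.23 ± 0.08, adjusted p = 0.221) and Lcp2 (-0.25 ± 0.08, adjusted p = 0.215) were not called with edgeR and the block. Nor were Zap70 (0.18 ± 0.08), Lat (0.17 ± 0.08), Ptpn6 (-0.12 ± 0.08) and Csk (0.07 ± 0.08). The libraries of the 2 groups did not overlap for Lck, Zap70 and Plcg1, all higher under BiTS (8.71% of all tested genes), and for Ptpn6 and Cd5, both lower (7.85%). Both calls were lost in each of the 4 fits that left out a BiTS or BiTS(mut) library, and in each of the 2 fits that left out an isotype library 5 of the 9 were called, with Lck, Plcg1 and Ptpn22 higher and Lcp2 and Cd5 lower.

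Among the other pathway genes 3 were called higher under BiTS than under BiTS(mut) and 0 lower, against 0.272% and 0.7% of all tested genes. All 3 belong to the list named PLC-gamma effectors: Rasgrp2 (0.59 ± 0.10, adjusted p = 0.000417), Rasgrp1 (0.41 ± 0.08, adjusted p = 0.00359) and Sos1 (0.41 ± 0.10, adjusted p = 0.0145, all with edgeR and the block). Rasgrp1 had 138 and 141 normalised CPM in the BiTS libraries, 102 and 108 in the BiTS(mut) libraries, and 107 and 115 in the isotype libraries. The BiTS libraries were above all others, and the BiTS(mut) libraries were below the isotype library of their set. Of the 6 fits that each left out 1 library, 4 kept the call of Rasgrp2, 3 that of Rasgrp1 and 2 that of Sos1. Without BiTS(mut) replicate 1, 0 of these 94 genes were called, and without isotype replicate 4, 12 were. Of the 16 tested dendritic cell markers, 6 were called lower under BiTS than under BiTS(mut), against 0.7% of all tested genes. All 10 T cell markers had positive values (7020 of all 13996 tested genes did), with 0 called.

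Between BiTS(mut) and isotype 0 of the 9 genes were called, with or without the block. Over all tested genes the block gave 7 calls (0.05%, with 0.00714% higher and 0.0429% lower), and without it 0 genes were called and 41 had an unadjusted p under 0.05. Lck had 692 and 630.1 normalised CPM in the BiTS(mut) libraries against 601 and 561 in the isotype libraries, and Zap70 218 and 214 against 204 and 197. These were the only 2 of the 9 whose BiTS(mut) libraries were both above both isotype libraries (6.82% of all tested genes), and 0 of the 9 lay below (6.89%). With the block the difference was 0.18 ± 0.08 for Lck, with a 95% interval of 0.03 to 0.34, and 0.18 ± 0.08 for Plcg1, with an interval of 0.02 to 0.35, before any adjustment for the number of genes. The other 7 genes ranged from -0.03 for Csk to 0.13 for Ptpn22, and 0 of the 94 other pathway genes were called with the block. Between Csk and Ptpn22 lay Zap70 (0.11), Cd5 (0.06), Ptpn6 (0.05), Lat (0.02) and Lcp2 (-0.01). BiTS(mut) replicate 2 had the highest share of spike-in counts, and scaling to the spike-ins moved the median of all genes in this comparison by -0.12 and brought Lck to 0.07 and Plcg1 to 0.07.

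The second set differed from the first in 6 of the 9 genes, in a test with treatment as a term (2 higher, 4 lower, against 25.9% and 26.9% of all tested genes, 52.7% in all), so calls were as common among other genes. Lat was higher in the second set in every group, with 327, 311 and 313 normalised CPM in the second-set libraries of BiTS, BiTS(mut) and isotype against 255, 212 and 205 in the first-set libraries (0.51 ± 0.07, adjusted p = 2.13e-08 with edgeR). Csk was slightly higher (0.17 ± 0.07, adjusted p = 0.0383 with edgeR). Ptpn22 was lower in the second set, with 292, 221 and 198 normalised CPM against 393, 324 and 302 in the first (-0.53 ± 0.07, adjusted p = 5.92e-09 with edgeR). The libraries of the sets did not overlap for Lat and Csk, both higher (27.9% of all tested genes), and for Ptpn22, lower (27.8%). Lcp2 (-0.26 ± 0.07), Plcg1 (-0.26 ± 0.07) and Cd5 (-0.24 ± 0.07) were also called lower, while Lck (-0.11 ± 0.06, adjusted p = 0.156), Ptpn6 (-0.11 ± 0.07, adjusted p = 0.169) and Zap70 (-0.02 ± 0.07, adjusted p = 0.810) were not, with edgeR. Without either BiTS(mut) library only Lat and Ptpn22 were called, and without a treatment term Lat, Lcp2 and Ptpn22.

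Of the 94 other pathway genes, 22 were called higher and 36 lower in the second set, against 25.9% and 26.9% of all tested genes. The Src family kinase Lyn (-1.27 ± 0.13), the kinase Syk (-1.20 ± 0.11) and Plcg2 (-0.79 ± 0.08), which take the places of Lck, Zap70 and Plcg1 in myeloid and B cells, were lower on the log2 scale, and Cd8a (0.67 ± 0.07) and Cd3d (0.48 ± 0.07) were higher. Genes that T cells express were also among those lower in the second set: the costimulatory receptor Cd28 (-0.64 ± 0.08), the receptor Cd6 (-0.37 ± 0.07), the ubiquitin ligases Cblb (-0.72 ± 0.07) and Itch (-0.75 ± 0.08) and the inositol kinase Itpkb (-0.64 ± 0.07). The dendritic cell markers moved with the sets, with 14 of 16 called lower in the second set (26.9% of all tested genes) and a median of -1.03. Of 10 T cell markers, 6 were called higher (25.9% of all tested genes), Cd8a and Cd3d among them. The labels do not say what the title numbers stand for, and whether the sets differ in cell mixture, day or animal cannot be told apart.

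**Figure D4:**
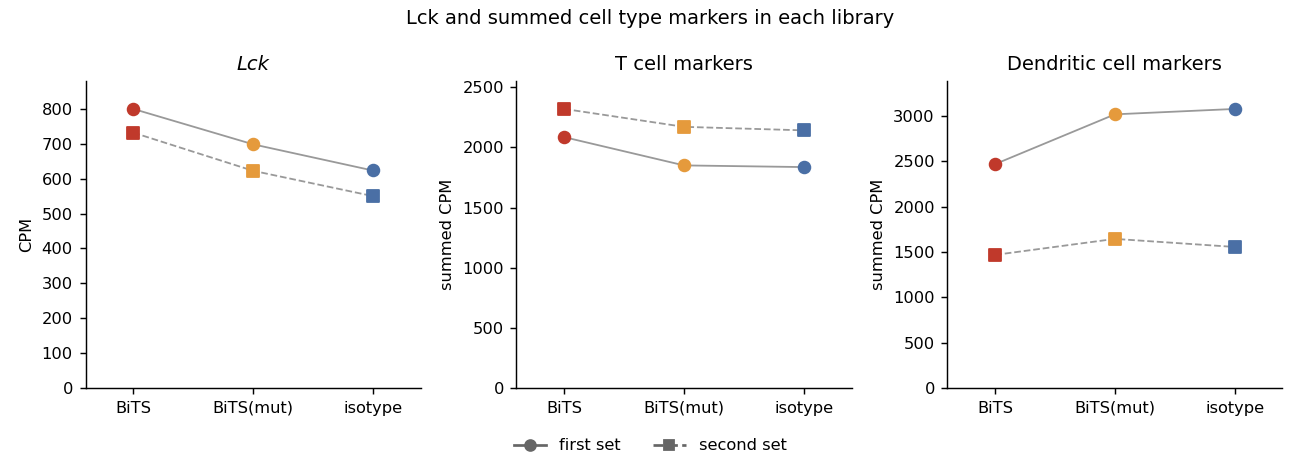
CPM of Lck, of 10 summed T cell markers and of 18 summed dendritic cell markers (y axes, from 0) in the 6 libraries by group, with circles and solid lines for the first set and squares and dashed lines for the second. Lck descends through BiTS, BiTS(mut) and isotype in both sets, the T cell markers are highest in BiTS within each set, and the dendritic cell markers are lower in the second set (1469 to 1645 CPM) than in the first (2470 to 3077 CPM).

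The genes most like each member across the 6 libraries, after subtracting the mean of each set, were sought among the 10221 other genes that averaged 5 CPM or more. For Lck these were Zfp12 (Pearson r = 0.999) and Tsc22d4 (r = 0.998). Zap70 was most like Slc37a4 and Accs, Plcg1 most like Ncoa3 and Rhoh, and Ptpn22 most like Pik3cd and Dpm3. Csk was most like Smarca5 and Akirin1, Lat most like Pym1 and Gm10076, and Lcp2 most like Nek6 and Plk1. Ptpn6 was most like Uxs1 and Tmem39a, and Cd5 most like Homer1 and Serpinb6b. These 18 correlations lay between 0.993 and 0.9996 over 6 libraries that share 2 sets and 3 groups, and they are given as a description only.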

How the data were processed

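The authors deposited 1 table of raw counts per gene for each library, in whole numbers, with gene exons listed per the file headers. Per the submitters' processing notes, the genome build was mm10 and DESeq2 was used; aligner, counter, annotation release and strand setting are not stated in these sources, and without strand, a gene and its antisense partner may share reads. Symbols came from GENCODE release M21 by identifier (49412 of 49671 matched). The 92 ERCC spike-in transcripts (3.36% to 7.54% of a library's counts) entered neither totals nor filter nor scaling.

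Counts were filtered with filterByExpr, scaled by TMM and tested with edgeR 4.0.16's quasi-likelihood test (limma 3.58.1, R 4.3.3), two-sided, with 1 coefficient per group and all 6 libraries, without a block (3 residual degrees of freedom) and with the title-number set as a block (2 residual degrees of freedom, and 45.9 prior ones). The pairing comes from the title numbers and from the correlation of 0.70, 0.78 and 0.76 between libraries of a set, not from a statement in the labels. A standard error is the log2 fold change over the square root of F, and intervals are 95%. Alternatives were other tools (limma-voom and DESeq2 1.42.0), other scalings (RLE size factors, totals, spike-ins), other filters (none, or 2 libraries with 5 CPM or more), the 4 libraries compared alone, and leaving out each library. The code of the fits was run on simulated counts with known fold changes, made from the set means of these data and a single spread for all genes. Such counts hold a set difference by construction, so they cannot show which fit suits these 6 libraries. Libraries of a group differed by more than sampling noise, so none was counted as a duplicate.

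The 9 genes, the pathway and marker lists and the tests were chosen with earlier results of these data known. The shares of all tested genes printed beside their counts are therefore a description and not a test. All 9 genes are named in each comparison, and from each other list up to 3 genes with the smallest p among those called with the block; Rasgrp1 in BiTS against isotype lies outside this rule and was named after its values were seen. 1 gene that this rule names in the set comparison is not reported here.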

Additional observations from a re-analysis of the deposited data

Results flagged for a closer look

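In 6 cases the within-set log2 difference of a gene had one sign in the first set and the other in the second, with 1 library per group in each set, so the difference between the sets was not tested. For BiTS against isotype this was Csk, with 0.16 in the first set and -0.09 in the second, a change of -0.26. For BiTS(mut) against isotype it was Csk (0.05 and -0.11, a change of -0.16), Lat (0.05 and -0.01, a change of -0.054), Lcp2 (0.07 and -0.09, a change of -0.15), Ptpn6 (0.10 and -0.001, a change of -0.10) and Cd5 (0.19 and -0.07, a change of -0.26). None of these 5 genes was called in these comparisons with or without the block.

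The spike-in transcripts, which the main scaling does not use, took 7.54% of all counts in BiTS(mut) replicate 2, against 4.03% and 5.38% in the isotype libraries. The share was 3.36% in BiTS(mut) replicate 1.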

How the results depend on the processing

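Without a block, the counts of called genes were 0 in each group comparison, except with no filter on low counts (11 for BiTS against isotype, 3 for BiTS against BiTS(mut), 5 for BiTS(mut) against isotype). With the replicate block, BiTS against isotype gave 476 genes and 4 of the 9. The same block gave 155 genes and 3 of the 9 with DESeq2, 537 and 4 with limma-voom, 461 and 3 with RLE size factors, 411 and 4 with library totals (3 higher and Cd5 lower), 458 and 3 with no filter, and 409 and 4 with a CPM of at least 5. BiTS against BiTS(mut) gave 136 genes and 2 of the 9 with the block, and with it 51 and 1 with DESeq2, 170 and 3 with limma-voom, 148 and 2 with RLE size factors, 124 and 2 with library totals, 155 and 2 with no filter, and 102 and 1 with a CPM of at least 5. BiTS(mut) against isotype gave 7 genes with the block, and in the same order 2, 8, 7, 6, 14 and 5, and 1 with spike-in scaling, with 0 of the 9 in each. Spike-in scaling called 0 genes in both BiTS comparisons.

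Leaving out 1 library with the block gave 130 to 937 genes and 1 to 6 of the 9 for BiTS against isotype (the 6, without isotype replicate 1, were 4 higher and 2 lower), 25 to 435 genes and 0 to 5 of the 9 for BiTS against BiTS(mut), and 7 to 132 genes for BiTS(mut) against isotype. For the second set against the first it gave 2 to 5 of the 9, and no treatment term gave 3, against 6.

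Signs turned for the values given here. No turned value was called in the fit concerned, and no group comparison called these genes without the block. This holds for the turned values and not for the whole ranges. The ranges from leaving out 1 library take the fits with and without the block together. For BiTS against isotype they were -0.12 to 0.19 for Csk and -0.11 to 0.50 for Lat. With the block alone Lat did not turn (0.08 to 0.30). For BiTS against BiTS(mut) leaving out 1 library gave -0.017 to 0.15 for Csk and -0.091 to 0.46 for Lat. With the block alone Lat did not turn here either (0.06 to 0.28), and spike-in scaling turned Ptpn6 to 0.052. For BiTS(mut) against isotype leaving out 1 library gave -0.18 to 0.12 for Csk, -0.29 to 0.35 for Lat and -0.19 to 0.16 for Lcp2. It gave -0.18 to 0.46 for Ptpn22, -0.057 to 0.15 for Ptpn6 and -0.11 to 0.22 for Cd5. With the block alone Ptpn22 did not turn in this comparison (0.08 to 0.19). There Lcp2 turned to 0.00523 with no filter and 0.0012 with a CPM of at least 5, and spike-in scaling with the block gave -0.013 for Zap70, -0.11 for Lat, -0.063 for Ptpn6 and -0.065 for Cd5. In the set comparison Zap70 turned to 0.000523 with a CPM of at least 5. The cause of these changes was not tested.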
